A study of Rattus norvegicus with 2 samples.

Results

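The MHC class II genes were followed here across the cell types of skeletal muscle in single-cell RNA-seq of 1 rat-mouse chimera and 1 Sprague-Dawley (SD) rat. They were taken by symbol, as 9 gene names: Cd74, the RT1 chain genes RT1-Da, RT1-Db1, RT1-Ba and RT1-Bb of the rat, the H2 chain genes H2-Aa, H2-Ab1 and H2-Eb1 of the mouse, and Ciita. With Cd74 and Ciita present in both species, these were 6 of 23373 rat genes and 5 of 25906 mouse genes in the deposited matrices. The names had been picked from an earlier look at the same data as genes high in antigen presenting cells, so their order across cell types is a description and was not tested.

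The chimera came from an SD rat morula injected with mouse induced pluripotent stem cells (iPSCs), which carried the Dmd mdx mutation with a CRISPR/Cas9 correction of dystrophin and the Pax7-nGFP reporter of satellite cells. Its rat cells and the SD rat cells were therefore of the host strain without editing, and its mouse cells all descended from cultured iPSCs. No age for the sequenced animals and no further treatment is given in the labels. Whole-body skeletal muscle had been digested with collagenase, freed of red cells and sorted for living cells before droplet capture, with 1 library per animal.

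MHC class II molecules are pairs of an alpha and a beta chain that carry peptides from endocytosed protein to CD4+ T cells. Cd74, the invariant chain, guides newly made pairs from the endoplasmic reticulum to the endosome and fills their groove until the peptide is loaded there. B cells, macrophages and dendritic cells express them constitutively, other cells after interferon gamma, and in both cases through Ciita, the transactivator that is recruited to class II promoters by factors bound to the X and Y boxes. RT1-D is the rat counterpart of mouse H2-E and RT1-B that of H2-A.

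Promoter sequence was available for the 4 rat chain genes, from RefSeq on the GRCr8 build. The stretch with both boxes is shown for each, since all 4 hold both motifs in the same order, and capitals mark the X box motif GNNACNG and the Y box motif CTGATTGG.
RT1-Da, chr20:4515327-4515376, plus strand: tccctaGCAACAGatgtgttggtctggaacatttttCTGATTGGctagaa
RT1-Db1, chr20:4560232-4560280, minus strand: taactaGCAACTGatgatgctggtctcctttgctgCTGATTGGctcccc
RT1-Ba, chr20:4576975-4577024, plus strand: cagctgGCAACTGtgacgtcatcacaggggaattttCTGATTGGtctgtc
RT1-Bb, chr20:4604169-4604217, minus strand: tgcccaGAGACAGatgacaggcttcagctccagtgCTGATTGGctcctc
The gap between the boxes was 23 bases in both alpha chain genes (RT1-Da and RT1-Ba) and 22 bases in both beta chain genes (RT1-Db1 and RT1-Bb). The Y box began 52 bases before the gene start in RT1-Da, 83 in RT1-Db1, 46 in RT1-Ba and 64 in RT1-Bb. Both strands of all 33469 rat RefSeq promoters were searched, each spanning 250 bases before to 50 bases after a start. The Y motif stood in 3.5% of them and the short X motif alone in 88.1%, while an X followed by a Y at a gap of 15 to 25 bases stood in 76, or 0.227%. That pair was also present in RT1-Db2 and RT1-Ha, and was not in these windows of Cd74, RT1-DMa, RT1-DOa or RT1-DOb. Such a match is a description of letters and not a measured binding site.

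The chimera library held 118872850 unique molecular identifiers (UMIs, single captured mRNA molecules) in 13299 barcodes and the SD rat library 70957559 in 10117, with 43 barcodes in common. After filters and removal of predicted doublets, 8816 SD rat cells remained, together with 8230 chimera rat cells (at most 20% of UMIs on mouse genes) and 1847 chimera mouse cells (at least 80%). Another 1653 chimera barcodes lay between these limits and entered no comparison. Cells were put in a class when at least 3 markers of that class were raised, and no class II gene was a marker. The 3 antigen presenting classes, B cell-like, macrophage-like and dendritic cell-like, held 51, 377 and 30 SD rat cells, 360, 659 and 70 chimera rat cells, and 129, 34 and 89 chimera mouse cells. All classes kept the name that their markers gave, where a tie with another class counted as kept. In the SD rat, however, none of the 10 leading genes of the dendritic cell-like class was a marker of it and 5 were class II genes. In chimera rat cells the dendritic cell-like class kept its name on a tie. Its 10 leading genes held 1 dendritic cell marker (Ccl17), 1 monocyte or neutrophil marker (Il1r2), and RT1-Db1, RT1-Ba and RT1-Bb. In the chimera mouse cells, 3 leading genes of the dendritic cell-like class were dendritic cell markers (Ccl17, Ccl22 and Naaa). With 1 library per animal no difference between groups can be tested. The intervals given are exact 95% intervals and cover counting error only.

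Cd74 was highest in dendritic cell-like cells, then in macrophage-like cells and then in B cell-like cells, in each of the 3 populations. Levels are UMIs of a gene per 1000000 UMIs of the cells' own species (CPM), summed over the cells of a class. In the SD rat, Cd74 stood at 19199 CPM in dendritic cell-like cells (interval 18762 to 19643), 8303 in macrophage-like cells (8205 to 8401) and 6503 in B cell-like cells (6173 to 6847). In chimera rat cells the same classes held 21594, 12192 and 8433 CPM, and in chimera mouse cells 16449, 11282 and 8636 CPM. Neighbours in this order differed beyond counting error in every population. Below them stood the monocyte or neutrophil-like cells at 626, 2105 and 3821 CPM and the T or NK cell-like cells at 181, 950 and 510 CPM in SD rat, chimera rat and chimera mouse cells. The non-immune classes together were at 59.4, 152 and 122 CPM, and mast cell-like cells at 7.93 CPM in the SD rat and 18.4 CPM in chimera rat cells.

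**Figure D1:**
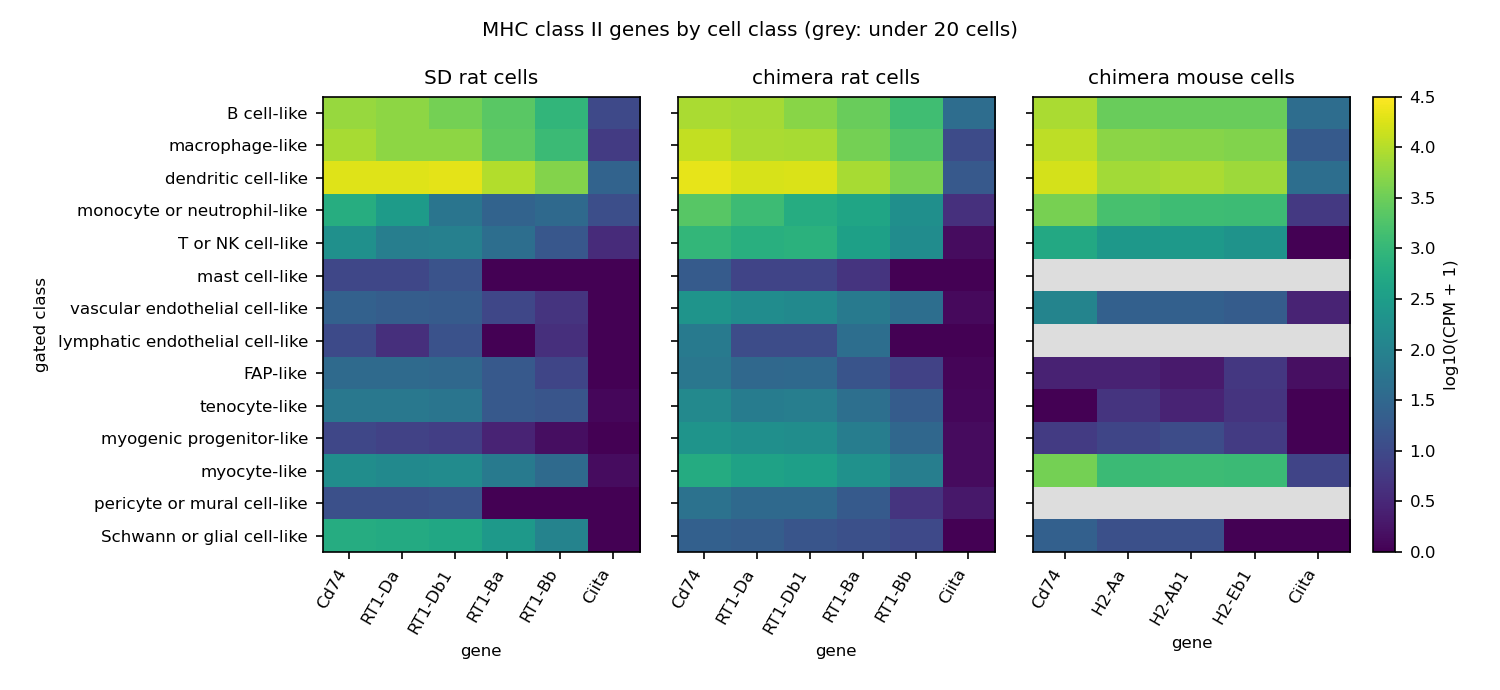
Levels of the class II genes by gated class, as log10(CPM + 1), in SD rat, chimera rat and chimera mouse cells. Rows are classes, columns are genes, and grey marks classes under 20 cells. Cd74 and the chain genes are brightest in the dendritic cell-like, macrophage-like and B cell-like rows, and the mouse myocyte-like row is bright through 1 cell that held 488 of its 492 Cd74 UMIs.

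The share of cells with a Cd74 UMI did not follow the order of the levels, as macrophage-like cells had the lowest share of these 3 classes. It was 98.0% of B cell-like, 71.9% of macrophage-like and 96.7% of dendritic cell-like SD rat cells, 99.4%, 87.6% and 100% in chimera rat cells, and 100%, 97.1% and 100% in chimera mouse cells. No Cd74 UMI was found in 33 of 46 SD rat, 25 of 45 chimera rat and 6 of 20 chimera mouse monocyte or neutrophil-like cells. For T or NK cell-like cells the counts without Cd74 were 45 of 51, 436 of 615 and 71 of 85. Mast cells are not expected to express Cd74, and here 4.35% of mast cell-like cells in the SD rat and 8.33% in chimera rat cells held a UMI of it, at median depths of 5302 and 4080.5 UMIs. The B cell-like cells were no deeper, with medians of 3992 and 4280.5 UMIs. After each cell was thinned to 1000 UMIs, Cd74 was still found in 98.0%, 99.2% and 100% of B cell-like cells of SD rat, chimera rat and chimera mouse, against 0% and 2.17% of mast cell-like cells of SD rat and chimera rat. Macrophage-like cells were at 65.3%, 77.2% and 91.2% and dendritic cell-like cells at 96.7%, 95.7% and 96.6% after thinning.

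Summed over Cd74 and the chain genes, most class II transcripts lay in few cells. The 3 antigen presenting classes made up 5.2% of SD rat cells and held 75.4% of the 142181 class II UMIs. In chimera rat cells they were 13.2% of the cells with 72.7% of the UMIs, and in chimera mouse cells 13.6% with 82.3%. Which class carried the larger part differed between the populations. Macrophage-like cells held 52.9% of the class II UMIs of the SD rat (52.7 to 53.2) and 47.4% in chimera rat cells, and dendritic cell-like cells held 19.5% and 15.1%. Among chimera mouse cells the dendritic cell-like class held 54.96%, the B cell-like class 18.2% and the macrophage-like class 9.2%. These shares follow the number of cells of each class that 1 digest yielded as well as the level per cell, and the 34 macrophage-like mouse cells are few.

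**Figure D2:**
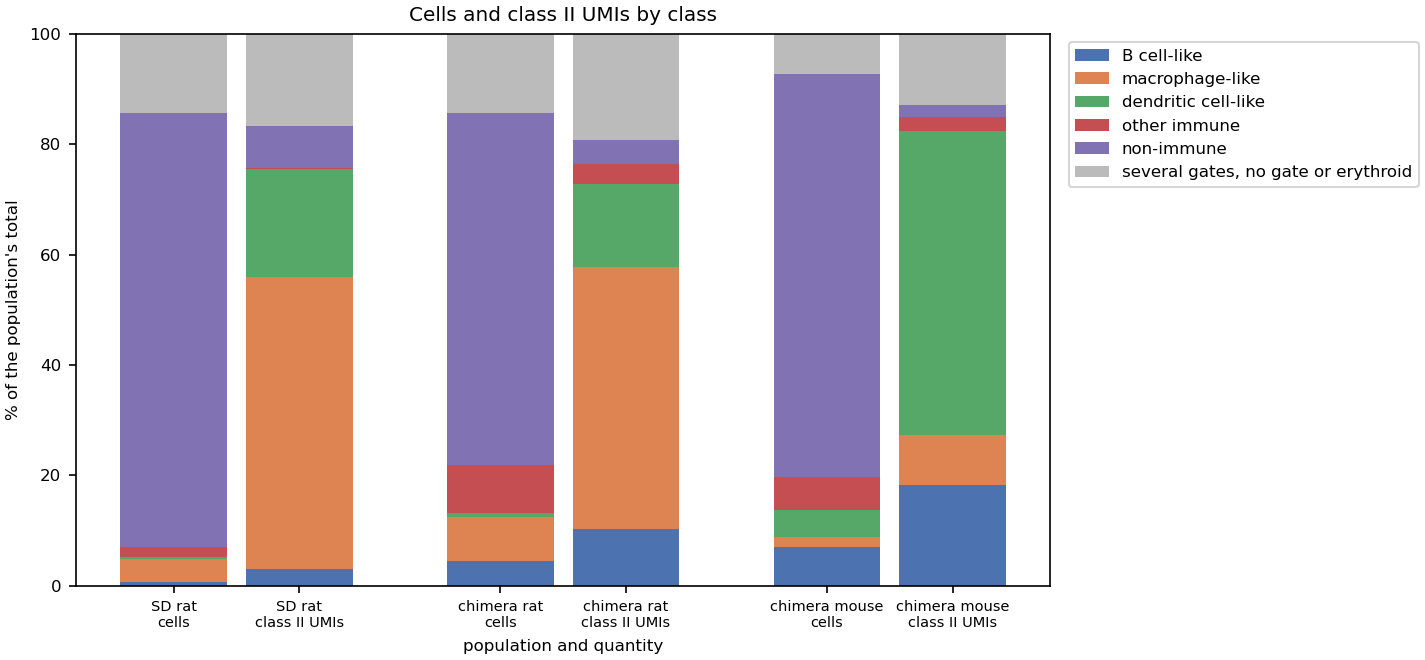
Share of cells (left bar of each pair) and of class II UMIs (right bar) by class, in percent of the population's total. The 3 antigen presenting classes take 75.4%, 72.7% and 82.3% of the UMIs in SD rat, chimera rat and chimera mouse cells, and the grey part is barcodes with several gates, no gate or an erythroid gate.

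Within the macrophage-like class the class II genes were spread widely, whereas B cell-like cells lay in a narrow range. The median share of a cell's own UMIs on Cd74 and the chain genes was 2.06% in B cell-like, 1.32% in macrophage-like and 6.99% in dendritic cell-like SD rat cells, and 2.67%, 3.26% and 6.95% in chimera rat cells. Chimera mouse cells had medians of 2.1%, 2.34% and 3.91%, over 3 chain genes in place of 4, so their values are not on the same footing as those of the rat. Under 0.1% of UMIs was found in 36.3% of SD rat, 22.8% of chimera rat and 5.9% of chimera mouse macrophage-like cells, while 21.8%, 32.2% and 20.6% held 5% or more. By contrast 90.2%, 97.5% and 94.6% of B cell-like cells lay between 1% and 5%. The macrophage-like cells without Cd74 were not shallow: the 106 such SD rat cells had a median of 8312.5 UMIs and the 232 with at least 10 Cd74 UMIs a median of 7969.

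**Figure D3:**
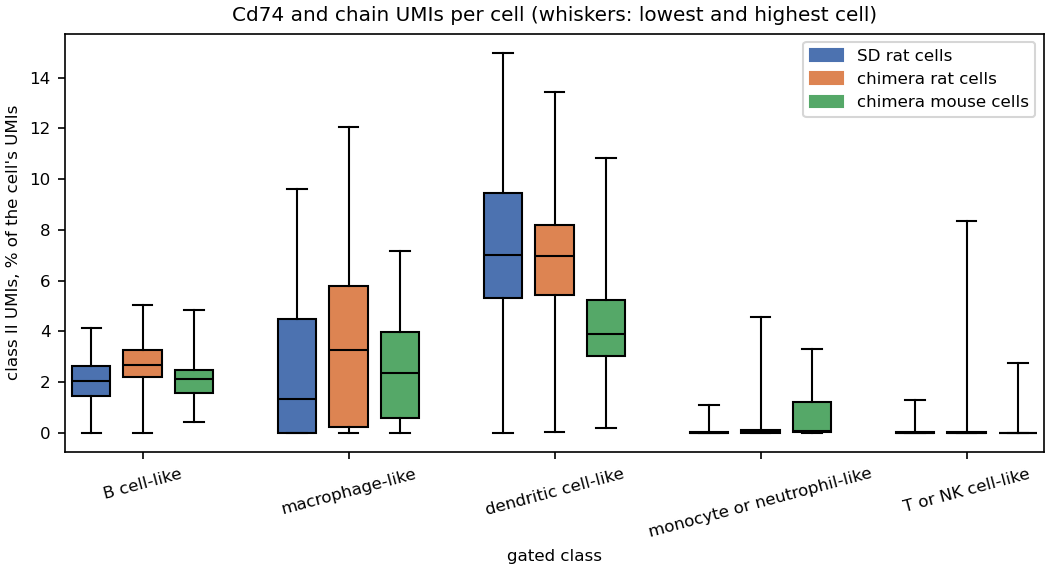
Cd74 and chain UMIs per cell as a percentage of the cell's UMIs of its own species, by class and population. Boxes span the quartiles with the median as a line and whiskers reach the lowest and highest cell; macrophage-like boxes reach from under 1% to above 3%, and dendritic cell-like medians are 6.99%, 6.95% and 3.91%.

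Macrophage-like cells with a UMI of Cd163, the haemoglobin scavenger receptor of resident tissue macrophages, held fewer class II transcripts than those without it. In the SD rat the class II level was 17175 CPM in 244 cells with Cd163 and 35026 CPM in 133 without, a log2 difference of -1.03. In chimera rat cells it was 24998 against 47734 CPM in 388 and 271 cells, a log2 difference of -0.93. The cells with Cd163 were somewhat deeper in the SD rat, with a median of 8359.5 against 7345 UMIs. Cd163 was 1 of 10 macrophage markers and was named after their values were seen. In the SD rat the log2 differences for others were -0.97 for Folr2, -0.82 for Ms4a7 and C1qb, -0.81 for C1qa and 0.20 for Adgre1. In chimera rat cells every macrophage marker had a negative difference. After Cd163 the largest were -0.55 for Mrc1 and -0.44 for Csf1r, and the smallest was -0.055 for Adgre1. Those of Folr2, Ms4a7 and C1qa were -0.26, -0.32 and -0.25. Among mouse dendritic cell-like cells the markers split in both directions, with 0.79 for Naaa (71 cells with, 18 without), 0.71 for Clec10a (17 and 72) and -0.53 for Flt3 (64 and 25).

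The chain genes followed Cd74 from cell to cell. Of the cells with at least 10 Cd74 UMIs, a UMI of every chain gene was present in 44 of 49 B cell-like, 212 of 232 macrophage-like and all 28 dendritic cell-like SD rat cells. The counts were 351 of 356, 464 of 494 and 67 of 68 in chimera rat cells and 129 of 129, 28 of 31 and 87 of 87 in chimera mouse cells. At the other end, 94 of the 106 SD rat and 61 of the 82 chimera rat macrophage-like cells without Cd74 had no chain UMI either. Between these ends the chains were often not seen: of the macrophage-like cells with 1 to 9 Cd74 UMIs, 22 of 39 in the SD rat and 45 of 83 in chimera rat cells had no chain UMI, and 2 and 0 had every chain.

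RT1-Da and RT1-Db1 encode the alpha and beta chain of RT1-D. RT1-Da was at 5505, 5361 and 18707 CPM in B cell-like, macrophage-like and dendritic cell-like SD rat cells, where the intervals of the first (5201 to 5821) and the second (5282 to 5440) overlap, and at 7915, 8526 and 16937 CPM in chimera rat cells. RT1-Db1 was at 3610, 5457 and 20679 CPM in the SD rat and 4949, 8311 and 17496 CPM in chimera rat cells. Its near-identical copy RT1-Db2 reached 35.6 CPM in chimera rat B cell-like cells, and reads of the pair may have been split or lost in counting, so the level of RT1-Db1 is uncertain to that extent. RT1-Ba and RT1-Bb, the chains of RT1-B, followed the same order. RT1-Ba was at 2248, 2436 and 9474 CPM in the SD rat, again with B cell-like and macrophage-like cells within counting error of each other, and at 2941, 3647 and 8280 CPM in chimera rat cells. RT1-Bb was at 923, 1169 and 4574 CPM and at 1319, 1860 and 3858 CPM.

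In mouse cells H2-Aa and H2-Ab1 encode the chains of H2-A and H2-Eb1 the beta chain of H2-E. H2-Aa was at 2922 CPM in B cell-like, 5220 in macrophage-like and 7666 in dendritic cell-like cells. H2-Ab1 was at 2957, 4838 and 8624 CPM, and H2-Eb1 at 2924, 4425 and 7008 CPM. H2-Ea, which encodes the alpha partner of H2-Eb1, had 0 UMIs in all mouse classes, which allows up to 1.96 CPM in dendritic cell-like cells.

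Relative to Cd74, the chains weighed differently by class. Per 100 Cd74 UMIs, SD rat cells held 84.6 RT1-Da UMIs in the B cell-like, 64.6 in the macrophage-like and 97.4 in the dendritic cell-like class, and chimera rat cells 93.9, 69.9 and 78.4. RT1-Db1 ran differently, with 55.5, 65.7 and 107.7 in the SD rat and 58.7, 68.2 and 81.0 in chimera rat cells, so that B cell-like cells had the lowest value for RT1-Db1 but not for RT1-Da. RT1-Bb was alike in B cell-like and macrophage-like cells (14.2 and 14.1 in the SD rat, 15.6 and 15.3 in chimera rat cells) and higher in dendritic cell-like cells (23.8 and 17.9). Mouse B cell-like cells held 33.8 H2-Aa, 34.2 H2-Ab1 and 33.9 H2-Eb1 UMIs per 100 Cd74 UMIs, below the 46.6, 52.4 and 42.6 of dendritic cell-like cells in all 3 chains.

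Ciita was sparse. It had 55 UMIs in all SD rat cells, 182 in chimera rat cells and 157 in chimera mouse cells, of which the 3 antigen presenting classes held 52.7%, 79.7% and 74.5%. In chimera rat cells it was at 38.9 CPM in B cell-like, 9.48 in macrophage-like and 17.3 in dendritic cell-like cells, and in chimera mouse cells at 40.0, 17.7 and 41.9 CPM. SD rat cells had 8.96, 5.14 and 26.1 CPM in these classes, from 2, 17 and 10 UMIs. The order of B cell-like and dendritic cell-like cells was not resolved by counting error in the SD rat (1.09 to 32.4 and 12.5 to 48.1 CPM) or in mouse cells (29.3 to 53.3 and 32.3 to 53.5 CPM). In chimera rat cells Ciita was lower in the macrophage-like than in the B cell-like class (7.2 to 12.3 against 30.3 to 49.2 CPM) although Cd74 was higher, and in chimera mouse cells the intervals of the same classes overlapped.

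Across classes of at least 20 cells, the genes whose pattern was most like that of Cd74 were the chain genes. The 4 rat chains took the first 4 places among 13007 genes in the SD rat and among 13214 in chimera rat cells (14 classes each), and the 3 mouse chains the first 3 among 11486 (11 classes). RT1-DMa, a chain of the DM exchange molecule, came next in both rat populations and H2-DMa next in mouse cells. Cd86, Cd83 and, in the rat, Ly86 and RT1-DMb were also among the 10 nearest, while Ciita ranked 106 in chimera rat and 74 in chimera mouse cells. These correlations of log2(CPM + 10) have the classes as points, which share libraries and depth, and carry no test.

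The other genes of the pathway were read from fixed lists as levels over the non-immune classes of the same population, with a difference of at least 2-fold called. The background share of all tested genes called higher in B cell-like, macrophage-like and dendritic cell-like cells was 25.8%, 12.7% and 11.6% in the SD rat, 20.4%, 12.9% and 11.6% in chimera rat cells and 12.4%, 8.98% and 9.6% in chimera mouse cells. The share called lower was 36.8%, 29.3% and 41.3%, then 34.3%, 27.6% and 36.6%, then 34.9%, 43.5% and 36.8%. Peptide exchange genes were higher throughout: 2 of 2 tested in each SD rat class, 3 of 3, 3 of 3 and 2 of 2 in chimera rat cells and 5 of 5, 2 of 2 and 5 of 5 in chimera mouse cells. RT1-DMa was at 179, 545 and 892 CPM in the SD rat against 5.03 CPM in non-immune cells, and H2-DMa at 369, 393 and 695 CPM in mouse cells. The mouse DO chains, which restrain DM and are typical of B cells, stood at 178 CPM (H2-Oa) and 297 CPM (H2-Ob) in B cell-like cells, at 70.0 and 112 CPM in dendritic cell-like cells and at 0 and 7.6 CPM in macrophage-like cells. H2-DMb2 had the same order with 374, 84.4 and 5.07 CPM.

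Among the 3 antigen presenting classes, more of the 6 genes of lysosomal processing were called higher in macrophage-like cells, with 4 in the SD rat and 5 in both chimera populations, and 0 lower. In B cell-like cells 2 were higher and 3 lower in each population, and in dendritic cell-like cells 2 were higher in each, with 2 lower in the rats and 3 lower in the mouse. Monocyte or neutrophil-like cells had 4, 5 and 3 of 6 higher, beside 15.3%, 16.6% and 13.2% of all genes. Ctss, which makes the late cut in Cd74 that leaves the CLIP peptide in the groove, was at 179, 1270 and 439 CPM in B cell-like, macrophage-like and dendritic cell-like SD rat cells against 6.15 CPM in non-immune cells, and at 317, 2263 and 535 CPM against 2.45 CPM in mouse cells. Ctsl, a protease of broad expression, ran the other way in B cell-like and dendritic cell-like cells, with 134 and 194 CPM in the SD rat against 619 CPM in non-immune cells. The general class II transcription factors of the RFX, NF-Y and CREB families, listed with Ciita, were higher in 5 of 7, 0 of 7 and 1 of 7 tests in the SD rat, with none lower, and in 4 of 8, 1 of 8 and 0 of 7 in chimera rat cells, with 0, 1 and 1 lower. In chimera mouse cells 1 of 8, 0 of 7 and 1 of 8 were higher and 1, 3 and 1 lower. Costimulatory genes were higher in every test within these classes, among them Cd80 at 96.8, 117 and 139 CPM in dendritic cell-like cells of SD rat, chimera rat and chimera mouse. Marchf1, a ligase that sends class II molecules to degradation, was at 161, 136 and 78.5 CPM in the SD rat against 14.7 CPM. Of the interferon gamma axis, 1, 2 and 2 of 7 genes were higher and 1, 1 and 1 lower in the SD rat, 1, 2 and 3 of 7 higher and 2, 1 and 1 lower in chimera rat cells, and 2, 1 and 2 of 8 higher and 2, 4 and 3 lower in chimera mouse cells. Irf1, a factor induced by interferon, was lower in each of these classes and populations, and in the SD rat stood at 58.2, 42.6 and 57.5 CPM against 212 CPM.

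Between the rats, class II levels in macrophage-like and B cell-like cells were moderately higher in the chimera, by less than 2-fold for every member apart from Ciita in B cell-like cells. The log2 ratio of chimera rat over SD rat cells, taken on CPM plus a pseudocount of 1, was 0.55 for Cd74 in macrophage-like cells, and the exact interval of the ratio without the pseudocount was 0.53 to 0.57. The chains were at 0.58 to 0.67 there, beside a median of 0.06 over all tested genes, and 0 of 6 members passed 2-fold higher where 1.96% of all tested genes did. In B cell-like cells Cd74 was at 0.37 (0.30 to 0.45) and the chains at 0.39 to 0.52, beside a median of -0.22. Ciita passed 2-fold there, at 2.00 with 70 UMIs against 2 and an interval of 0.21 to 5.19, as 1 of 6 members beside 4.51% of all genes. In dendritic cell-like cells Cd74 was at 0.17 and the chains at -0.25 to -0.14, and 0 of 5 members passed beside 5.58%. When classes were taken from clusters in place of marker gates, the macrophage ratio of Cd74 was 0.14. The ratios are of UMIs summed over a class, and the mix of macrophage-like cells differed between the rats. Under 0.1% of UMIs on class II genes was found in 36.3% of SD rat and 22.8% of chimera rat macrophage-like cells. The part of this mix in the ratio was not tested. No spread between animals stands behind any of these ratios.

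The larger ratios lay in classes of low level and, apart from pericyte or mural cell-like cells, rested on few cells. In T or NK cell-like cells Cd74 had a log2 ratio of 2.39 (2.05 to 2.75) and 5 of 5 members passed 2-fold, beside 7.33% of all genes. Of the chimera rat cells in that class, 24 of 615 had at least 10 Cd74 UMIs and held 93.8% of them, with a median of 3.5 of 30 markers of the antigen presenting classes and 23746 UMIs per cell. The SD rat class had 1 such cell of 51, with 72.9% of the Cd74 UMIs. Without cells that held at least 2 of those markers the ratio was 1.08, and without the top cell of each library it was 4.07. Monocyte or neutrophil-like cells had 5 of 5 members above 2-fold beside 6.64% (Cd74 at 1.75, interval 1.50 to 2.00), with 82.8% of SD rat Cd74 UMIs in 3 cells and 96.6% of chimera rat ones in 11.

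Vascular endothelial cell-like cells of the chimera rat had 5 of 5 members above 2-fold beside 2.38% of all genes, at a log2 ratio of 3.08 (2.83 to 3.45) for Cd74, but 339 of the 753 UMIs lay in 1 cell. Without cells that held at least 2 of 8 pan-immune markers (Ptprc, Cd52 and others) the ratio was 0.50. Myogenic progenitor-like cells were at 4.53, where 1 cell held 402 of 616 UMIs and 5 of 5 members passed beside 0.938%. Their Cd74 ratio was 0.0670 with classes from clusters, 1.20 without pan-immune marker cells and 1.12 without cells with markers of antigen presenting classes. Myocyte-like cells were at 1.86, where the ratio without pan-immune marker cells was -0.0586 and 5 of 5 passed beside 2.29%. In Schwann or glial cell-like cells it was -4.66, with 322 of 326 SD rat UMIs in 1 cell and 5 of 5 members lower beside 4.83% of all genes. FAP-like cells (fibro-adipogenic progenitors, the stromal cells of muscle) had a ratio of 0.73 for Cd74 and -0.30 to 0.02 for the chains, with 0 of 5 above 2-fold beside 0.884%. Other settings put Cd74 above 2-fold in FAP-like cells. The ratio was 2.72 with the species threshold of 90% and 10%, where the class held 493 chimera rat cells in place of 2447. With clusters it was 1.78, without pan-immune marker cells 1.30 and with doublets kept 1.23. Tenocyte-like cells had 2 of 5 members above 2-fold beside 1.27%, and pericyte or mural cell-like cells 1 of 1 beside 2.75%. That 1 was Cd74 at 1.97 in pericyte or mural cell-like cells, from 51 chimera rat and 8 SD rat UMIs. The 51 UMIs were spread over 37 of 227 cells, with at most 9 in 1 cell. Over all non-immune classes Cd74 had a log2 ratio of 1.34 (1.29 to 1.42) and the chains lay at 0.76 to 0.86, which put 1 of 5 above 2-fold beside 0.671% of all genes. Without pan-immune marker cells the Cd74 ratio was 0.89, below 2-fold, and at 90% and 10% it was 2.65.

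**Figure D4:**
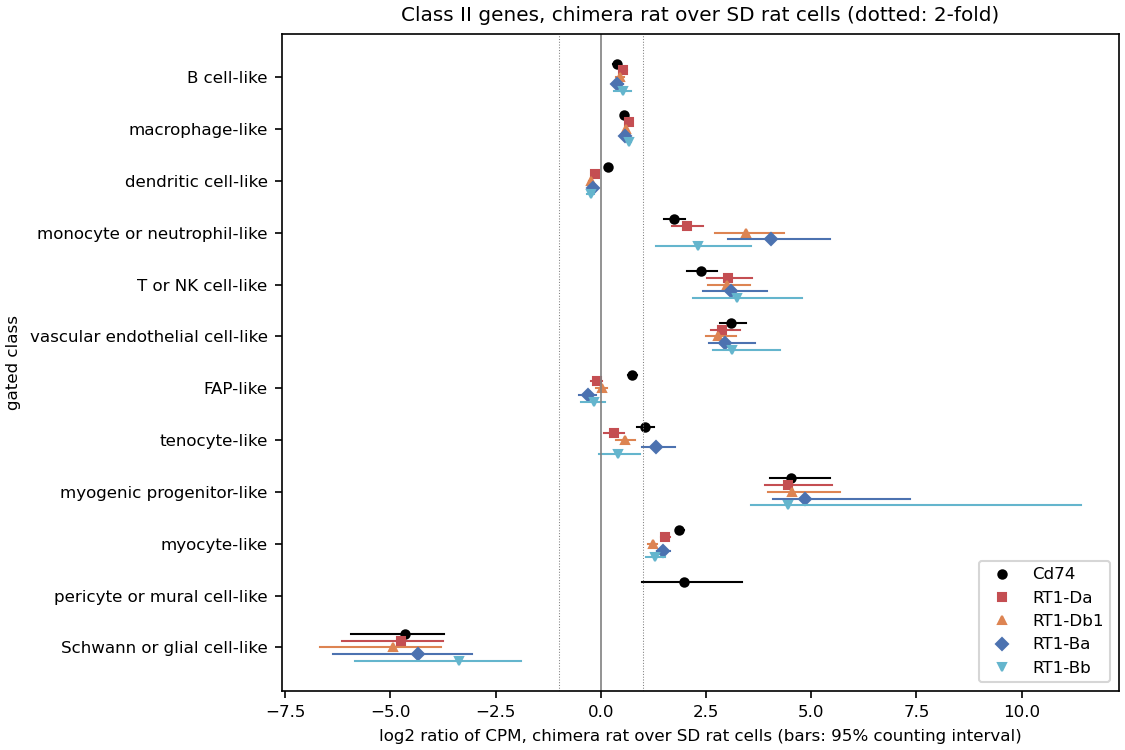
log2 ratio of CPM of chimera rat over SD rat cells for Cd74 and the 4 chain genes by class, with a pseudocount of 1 CPM. Bars are 95% counting intervals and dotted lines mark 2-fold. B cell-like, macrophage-like and dendritic cell-like points lie between the lines. Points far from 0 belong to classes where few cells held most of the UMIs, apart from the pericyte or mural cell-like class. Its 51 chimera rat Cd74 UMIs lay in 37 of 227 cells.

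In rat non-immune cells, high Cd74 and pan-immune markers went together. Cells with at least 10 Cd74 UMIs were 23 of 6922 in the SD rat and 43 of 5251 in the chimera, and they held 82.4% and 85.3% of the non-immune Cd74 UMIs. At least 2 of the 8 pan-immune markers were found in 20 of the 23 and in all 43, compared with 0.83% and 1.43% of the non-immune cells without Cd74. Of 1349 non-immune mouse cells, 32 had at least 10 Cd74 UMIs, and 1 of them held at least 2 pan-immune markers. The other 31 were vascular endothelial cell-like, none of these held 2 or more, and 6 held 1. At least 2 of 30 markers of antigen presenting classes were found in 11 of these 31 cells (35.5%) and in 11.5% of the endothelial cells without Cd74, at median depths of 13694 and 5581 UMIs and median doublet scores of 0.0923 and 0.0495. The part of depth and of these markers in the result was not tested.

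Mouse endothelial cells with several Cd74 UMIs mostly held venous genes. Each vascular endothelial cell-like cell was scored by how many of 6 genes of venous and postcapillary endothelium it held: Ackr1, Selp, Sele, Vcam1, Plvap and Nr2f2. Ackr1 is an atypical chemokine receptor of venules, Selp, Sele and Vcam1 are adhesion molecules for leukocytes, Plvap forms the diaphragms of fenestrae and caveolae, and Nr2f2 is the transcription factor of venous identity. Of the 125 mouse cells with at least 3 of these genes, 61 had at least 3 Cd74 UMIs, or 48.8% (39.8 to 57.9), and of the 963 cells with fewer, 8 did, or 0.831%. The Cd74 level was 450 CPM in the first group and 13.9 CPM in the second, the chain genes summed to 233 and 20.6 CPM, and Ciita had 10 UMIs (5.96 CPM) and 5 UMIs (0.782 CPM). Cells in the first group were deeper, with a median of 10845 against 5527 UMIs. Averaged over all possible draws of 1000 UMIs per cell, Cd74 would be found in 29.1% of the first and 1.48% of the second. Only Cd74 was thinned and the venous genes were counted at full depth, so the part of depth in the split was not tested. The groups were not the same cells: of the 118 cells with any Cd74 UMI, 41 had fewer than 3 venous genes, and 77 of the 125 cells with at least 3 venous genes had a Cd74 UMI. The score and the split were chosen after these cells had been seen.

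The share rose with the number of venous genes: 0.134% of 747 cells with none, 1.13% of 177 cells with 1, 12.8% of 39 cells with 2, 13.6% of 22 cells with 3 and 56.3% of 103 cells with 4 or more. In rat endothelial cells the share did not rise in this way. In the SD rat, 0 of 46 cells with at least 3 venous genes had 3 Cd74 UMIs, which allows a share of up to 6.52%, and their Cd74 level was 21.0 CPM against 24.7 CPM in the rest. In the chimera rat it was 1 of 59 (1.69%, interval 0.0429 to 9.09), and the level was 430 CPM against 157 CPM in the rest, with 307 of the 316 Cd74 UMIs of the venous gene cells in that 1 cell. These rat cells had medians of 5272.5 and 9026 UMIs, and 1.83% and 3.18% of them would hold Cd74 after thinning. The mouse share thus lay above those of the SD rat and the chimera rat by more than counting error. Mouse and chimera rat cells came from the same chimera and library, and the SD rat cells from 1 other animal. At the stricter species threshold of 90% and 10% the chimera rat share rested on few cells (11.1%, interval 0.281 to 48.2) and its interval overlapped that of the mouse (50.9%, 41.2 to 60.6).

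**Figure D5:**
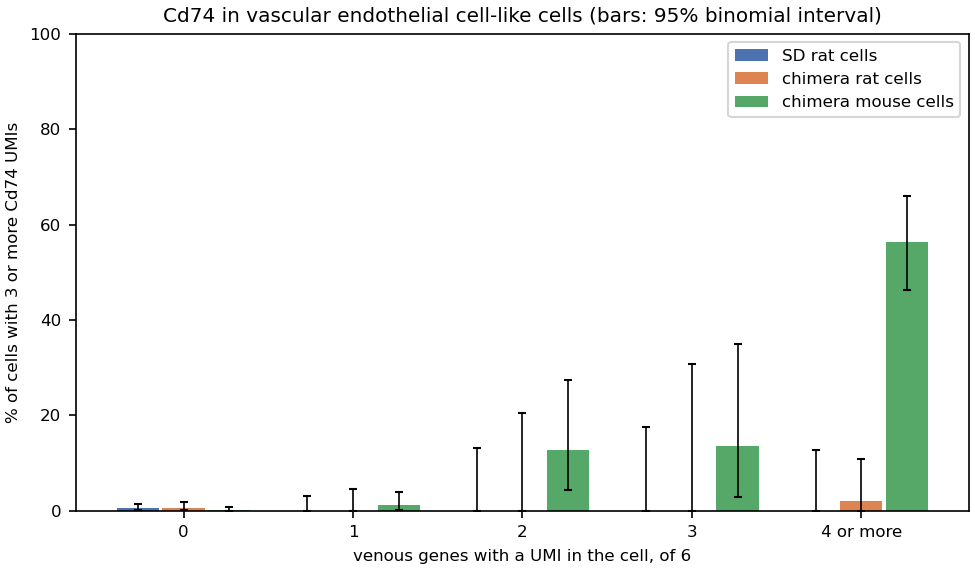
Percentage of vascular endothelial cell-like cells with at least 3 Cd74 UMIs, by the number of 6 venous genes with a UMI in the cell. Bars are shares with 95% binomial intervals; mouse cells rise from 0.134% with no venous gene to 56.3% with 4 or more, while rat cells stay near 0.

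The mouse endothelial cells with at least 3 Cd74 UMIs (69 cells) were then set against those with none (970 cells). Of the 69 cells, 61 held at least 3 venous genes, so the venous genes repeat the split above from the other side. The venous, capillary and arterial lists had been chosen after the values were seen, and their counts are a description. All 6 venous genes were at least 2-fold higher, beside 4.66% of the 8881 genes tested: Ackr1 was at 1077 against 56.0 CPM, a log2 ratio of 4.24, Selp at 3538 against 238 CPM and Nr2f2 at a log2 ratio of 2.97. Of 6 capillary genes, 5 were at least 2-fold lower beside 13.5% of all genes, with log2 ratios of -4.61 for Lpl, -3.82 for Timp4, -2.63 for Rbp7 and -2.39 for Gpihbp1, which anchors Lpl on the capillary wall. Of 6 arterial genes 4 were lower and 1 higher. The chain genes rose with Cd74, H2-Aa standing at 144 against 5.79 CPM, a log2 ratio of 4.42. Among 8 tested genes of the interferon gamma axis, 1 passed 2-fold higher, Irf8 with a log2 ratio of 1.02. Over all 1088 mouse endothelial cell-like cells, 100 Cd74 UMIs went with 21.9 H2-Aa, 21.6 H2-Ab1 and 18.5 H2-Eb1 UMIs. These values were below the 33.8, 34.2 and 33.9 of B cell-like cells and the 46.6, 52.4 and 42.6 of dendritic cell-like cells.

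UMIs on the gene of the other species were counted in the chimera cells. Whether they came from free RNA, mapping errors or barcodes with cells of both species was not tested. In chimera rat antigen presenting cells, 176 of 111168 Cd74 UMIs, or 0.158%, were on the mouse gene, and over all chimera rat cells 0.328% were, while the median cell had 11.2% of its UMIs on mouse genes. In mouse antigen presenting cells 0.141% of Cd74 UMIs were on the rat gene. The share was larger where the class itself held little: 15.9% in mouse endothelial cell-like cells and 89.7% (26 of 29 UMIs) in mouse FAP-like cells, where the mouse gene was at 1.68 CPM. That level rests on 3 mouse Cd74 UMIs in 120 mouse FAP-like cells, which is no more than the limit given to a count of 0. For the chain genes of mouse endothelial cell-like cells the rat share was 38.3% for RT1-Db1 with H2-Eb1 (97 of 253 UMIs). It was 18.9% for RT1-Ba with H2-Aa and 7.61% for RT1-Bb with H2-Ab1. In chimera rat FAP-like cells, 31.1% of the UMIs of RT1-Bb with H2-Ab1 were on the mouse gene.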

How the data were processed

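Deposited were UMI counts per gene and barcode, which the authors made with Cell Ranger 7.1.0 on the mRatBN7.2 and GRCm39 builds, per the submitters' processing notes. The chimera file holds rat and mouse genes and the SD rat file rat genes only. Whether the SD rat reads were counted against the combined rat and mouse reference is not given in the sources used here.

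Barcodes with at least 500 UMIs, 200 genes and at most 20% mitochondrial UMIs were kept (scanpy 1.11.5). Scrublet, with an expected doublet rate of 8%, marked 444 of 12174 chimera and 164 of 8980 SD rat barcodes, which were removed. A marker was raised in a cell with at least 1 UMI and a level at or above the population mean; a class needed 3 raised markers and a 1.5-fold lead over the next class. Counts were summed per class, divided by the own-species total and given as CPM. Ratios used a pseudocount of 1 CPM and genes with at least 50 UMIs summed over both sides. Poisson and Clopper-Pearson intervals are at 95%. A count of 0 was given a limit of 3 counts. The Cd74 ratio of gated classes and the Poisson interval were tested on simulated data with known answers. Dendritic cell-like cells were not simulated, and the class shares and the other intervals were not tested in this way.

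The members, gene lists and named genes (all members, and the 10 genes nearest to Cd74) were chosen with earlier results of these data known. The gate rule was set after the cells had been seen, as were the venous, capillary and arterial lists. Alternatives were a stricter species threshold, doublets kept, another UMI minimum, 1 more marker, classes from clusters, removal of single cells or of cells with immune markers, and another pseudocount. A setting without the minimum on summed UMIs was also counted, although that minimum does not enter the Cd74 ratios.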

Additional observations from a re-analysis of the deposited data

Results flagged for a closer look

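Class II transcripts were also present in the chimera barcodes that entered no comparison because 20% to 80% of their UMIs were on mouse genes. These 1653 barcodes held 7104 rat and 17531 mouse class II UMIs. At least 10 rat class II UMIs were found in 41 of them, at least 10 mouse class II UMIs in 42, and both in 7. They were looked at because no comparison used them and their signal was above what a count of 0 allows.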

How the results depend on the processing

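No paired analysis was possible because each group is 1 library, and no replicate could be left out. Of 83 values recomputed for the main comparisons, 37 moved by less than their counting interval and 46 by more. Of 96 others, 54 stayed within it, 37 moved and 5 changed direction. Part of those that stayed could not move. The setting without a minimum on summed UMIs repeats the main ratio, and the species threshold leaves the SD rat cells unchanged. The causes of the moves were not tested. Cd74 in the 3 antigen presenting classes (9264 CPM in SD rat, 12472 in chimera rat and 12860 in chimera mouse cells) was 8954 and 12273 CPM in the rats with doublets kept, 8909, 12159 and 12638 CPM with 1 more marker, 10058, 11564 and 12566 CPM with classes from clusters, and 13797 CPM in chimera rat cells at the species threshold of 90% and 10%. The share of class II UMIs in these classes (75.4%, 72.7% and 82.3%) was 73.3%, 70.6% and 81.8% with doublets kept, 66.3%, 64.5% and 77.4% with 1 more marker, 93.3%, 94.97% and 97.5% with clusters, and 68.8% and 81.7% in the chimera at 90% and 10%.

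At 90% and 10% the chimera rat population held 2874 cells in place of 8230. The log2 ratio of Cd74 between the rats was then 0.67 in macrophage-like, 0.23 in dendritic cell-like, 0.29 in B cell-like, 2.81 in T or NK cell-like and 2.65 in non-immune cells. With classes from clusters these were 0.14, 0.36, 0.55, 1.14 and 1.92. With 1 more marker the macrophage-like ratio was 0.51, the dendritic cell-like 0.41, the T or NK cell-like 4.02 and the non-immune 1.18. Without the top cell of each library the dendritic cell-like ratio was 0.22, the T or NK cell-like 4.07 and the non-immune 1.42. The non-immune ratio of 1.34 was 1.53 with doublets kept, 0.89 without pan-immune marker cells and 1.22 with a pseudocount of 10 CPM. Without cells with at least 2 markers of antigen presenting classes, an alternative chosen after seeing the data, it was 1.57 and the T or NK cell-like ratio 1.08.

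Direction changed in myocyte-like cells (1.86 to -0.0586 without pan-immune marker cells) and in Schwann or glial cell-like cells, where -4.66 became 5.04 with clusters, 1.13 without the top cell, 1.45 without pan-immune marker cells and 2.01 without cells with markers of antigen presenting classes. The share of Cd74 UMIs on the other species fell from 0.328% to 0.206% in chimera rat and from 0.647% to 0.548% in chimera mouse cells at 90% and 10%. With 1 pan-immune marker in place of 2, the share of non-immune cells with at least 10 Cd74 UMIs that held such markers was 100% in place of 87.0% in the SD rat and 21.9% in place of 3.12% in chimera mouse cells. The share of mouse endothelial cells with venous genes that held Cd74 moved by less than its interval in every alternative run, all of them chosen after seeing the data, while that of chimera rat cells went from 1.69% to 11.1% (0.281 to 48.2) at 90% and 10%, where its interval overlapped that of the mouse.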

Other observations

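H2-Eb2, a relative of H2-Eb1 in the mouse class II region, was weighted to other classes than its neighbour. It stood at 72.1 CPM in B cell-like cells (57.4 to 89.4) and 29.4 CPM in dendritic cell-like cells, and had 0 UMIs in the 34 macrophage-like cells, which allows up to 7.6 CPM. H2-Eb1 had 4425 CPM in those macrophage-like cells.

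Part of the class II signal lay in barcodes without a single class. Barcodes that passed several gates had Cd74 at 691 CPM in the SD rat, 3156 in chimera rat and 7880 in chimera mouse cells, and those that passed no gate had 1160, 2983 and 5174 CPM. Ungated cells held 15 of the 55 Ciita UMIs of the SD rat.

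The mouse endothelial cells with at least 3 Cd74 UMIs had, besides the venous genes, Mctp1, Prkg1, Bgn, Lrg1, Cytl1 and Mgp among their 10 highest genes by log2 ratio, the class II genes set aside. The 10 lowest were led by the haemoglobin genes Hba-a1 (11.4 against 1385 CPM) and Hbb-bs (20.7 against 1904 CPM), which are the defining transcripts of red cells.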
